A study of Mus musculus with 8 samples.

Results

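The 5 genes described here were Trdc, Trdv4, Tcrg-V6, Tcrg-C1 and Cd163l1, taken by symbol from the 32285 genes of the count tables. They were chosen by name and followed through the T cells, group 2 innate lymphoid cells (ILC2) and natural killer (NK) cells of every library. The data came from 8 droplet single-cell RNA libraries of CD45.2+ cells sorted from perfused mouse brain, 1 library per combination of genotype and treatment. Mice were either wild type (WT, strain C57BL/6J) or App NL-G-F, which carry familial Alzheimer mutations in the endogenous App gene, and were given water alone, given dextran sulfate sodium (DSS), or made allergic to ovalbumin. The question was how inflammation of the gut changes the immune cells of the brain. All mice were labelled as 16 weeks old. Acute colitis was 2% DSS in the drinking water for 7 days. Chronic colitis was 3 courses of 2% DSS of 5 days each, with water between them. Food allergy was 3 sensitizations with ovalbumin followed by 7 days of oral ovalbumin. Mice of a library were tagged with antibody hashtags and pooled, and the tables do not tie a hashtag to a named mouse. An antibody to CD45 was injected before perfusion to mark cells in blood vessels, and no source used here states that marked cells were left out of the sort.

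Gamma-delta T cells carry a receptor built from a gamma and a delta chain in place of the alpha and beta chains of conventional T cells. Each chain is made by joining a variable segment, and in the delta chain also diversity segments, to a joining segment and then splicing to a constant region. In mice, cells that pair the Vγ6 and Vδ1 segments arise before birth, settle in the meninges, skin, lung, gums and genital tract, and are known for making interleukin-17 (IL-17). Trdc encodes the delta constant region and Tcrg-C1 a gamma constant region, Trdv4 and Tcrg-V6 encode the Vδ1 and Vγ6 variable segments, and Cd163l1 encodes SCART1, a membrane protein with scavenger receptor cysteine-rich (SRCR) domains known from IL-17-type gamma-delta T cells.

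The receptor genes lie on 2 chromosomes, so a Tcrg-V6 and a Trdv4 transcript are never the same molecule. In build mm10 (GENCODE annotation), Tcrg-V6 lies at chr13:19190356-19190929 and Tcrg-C1 at chr13:19214103-19217024, both on the plus strand. Trdv4 lies at chr14:54074905-54075515 and Trdc at chr14:54142851-54148868, again on the plus strand. Cd163l1 lies at chr7:140218267-140231145 on the plus strand, upstream of its relative 5830411N06Rik (SCART2) at chr7:140247284-140300736. The second exons of both variable segments (the last 300 bases for Tcrg-V6) are shown because the main result below rests on telling these segments apart. Each exon codes for most of a variable domain and ends just past a cysteine codon (TGT, in capitals), which follows a pair of tyrosine codons and precedes the junction. The stretch of Tcrg-V6 covers chr13:19190630-19190929 (300 of 318 bases) and the exon of Trdv4 chr14:54075217-54075515 (299 bases), each printed 5′ to 3′.
Tcrg-V6: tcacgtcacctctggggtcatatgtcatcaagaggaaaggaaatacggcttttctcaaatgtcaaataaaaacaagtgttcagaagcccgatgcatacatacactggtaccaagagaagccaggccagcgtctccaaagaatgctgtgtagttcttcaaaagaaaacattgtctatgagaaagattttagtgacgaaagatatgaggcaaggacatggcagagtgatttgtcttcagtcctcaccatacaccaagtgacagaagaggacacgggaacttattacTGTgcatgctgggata
Trdv4: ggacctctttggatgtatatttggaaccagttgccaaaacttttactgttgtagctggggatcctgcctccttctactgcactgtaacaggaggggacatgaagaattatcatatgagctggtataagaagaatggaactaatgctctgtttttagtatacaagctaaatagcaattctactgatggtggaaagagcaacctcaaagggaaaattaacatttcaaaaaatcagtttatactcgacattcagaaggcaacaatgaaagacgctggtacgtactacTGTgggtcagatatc

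The gamma constant gene Tcrg-C1 has a close copy, Tcrg-C2, on the minus strand at chr13:19304649-19307551. How a read is split between such copies is uncertain, and the level of Tcrg-C1 carries that uncertainty.

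The files held 685270 to 714379 barcodes per library, of which 4874 to 7199 were kept as cells, 50101 in all. Kept cells of a library held 25619139 to 54618574 unique molecular identifiers (UMIs, each counting 1 captured RNA molecule). Library pairs shared 34 to 72 cell barcodes. Cells were clustered without the gamma and delta receptor genes or Cd163l1, and 10528 fell in T-like clusters. Alpha and beta receptor genes were not left out of the clustering, except segments shared with the delta chain. A T cell with at least 1 UMI of Trdc or Tcrg-C1 is called receptor-positive here, which gave 1805 cells. Of these, 442 had Trdc alone, 630 had Tcrg-C1 alone and 733 had both. The gamma-delta T-like cluster, which was named from Il17a, Il23r, Blk, Sox13 and other markers, held 1335 (74.0%) of them. A further 385 (21.3%) lay in the CD4 T-like cluster and 85 (4.71%) in CD8 T-like clusters. Of the 1726 cells in the gamma-delta T-like cluster, 77.3% were receptor-positive. Median depth was 3464 UMIs in receptor-positive and 2715 in other T cells.

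All 5 genes were concentrated in receptor-positive T cells, with exceptions in ILC2 and NK cells for the receptor genes. Of all UMIs in kept cells, receptor-positive T cells held 77.7% for Trdc, 77.5% for Trdv4, 84.2% for Tcrg-V6 and 84.2% for Cd163l1. For Tcrg-C1 the share was 42.6%, and ILC2 held 34.7%. Because Trdc and Tcrg-C1 chose the class, their level in it is a description.

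The delta variable segment Trdv4 was at 2776, 1731, 2272 and 2006 CPM (counts scaled to 1000000 UMIs of the class) in receptor-positive T cells of the WT libraries, given from here on in the order control, acute colitis, chronic colitis, allergy. In the App NL-G-F libraries it was at 2080, 1394, 1542 and 1627 CPM in the same order. WT control was highest and App NL-G-F acute colitis lowest. Other T cells of the same libraries had 11.2 to 53.4 CPM, so the classes did not overlap. The gamma variable segment Tcrg-V6 was at 1007, 921, 1282 and 1229 CPM in the WT libraries and at 937, 796, 943 and 1113 CPM in the App NL-G-F libraries. Its range in other T cells was 8.91 to 33.7 CPM, again without overlap. The scavenger receptor gene Cd163l1 was at 933, 1206, 1199 and 1344 CPM in the WT libraries and at 910, 774, 999 and 1042 CPM in the App NL-G-F libraries. Other T cells had 8.10 to 39.0 CPM, with App NL-G-F food allergy highest among them. Every receptor-positive sum of Cd163l1 lay far above every sum in other T cells.

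The constant genes were at lower counts. Trdc was at 476, 353, 411 and 354 CPM in receptor-positive T cells of the WT libraries and at 359, 341, 278 and 377 CPM in those of the App NL-G-F libraries. Tcrg-C1 was at 411, 383, 705 and 517 CPM and at 390, 353, 606 and 472 CPM in the same order, highest in the chronic colitis library of each genotype. Without 1 cell described below, WT chronic colitis was at 500 CPM, below the 517 CPM of WT food allergy. In receptor-positive cells that held the gene, the mean was 2.14 UMIs for Trdc and 2.36 for Tcrg-C1, against 11.9 for Trdv4, 6.27 for Tcrg-V6 and 6.22 for Cd163l1. A positive call often rested on 1 UMI for the constant genes, in 530 cells for Trdc and 632 for Tcrg-C1, but in 42 cells for Trdv4, 56 for Tcrg-V6 and 79 for Cd163l1.

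**Figure D1:**
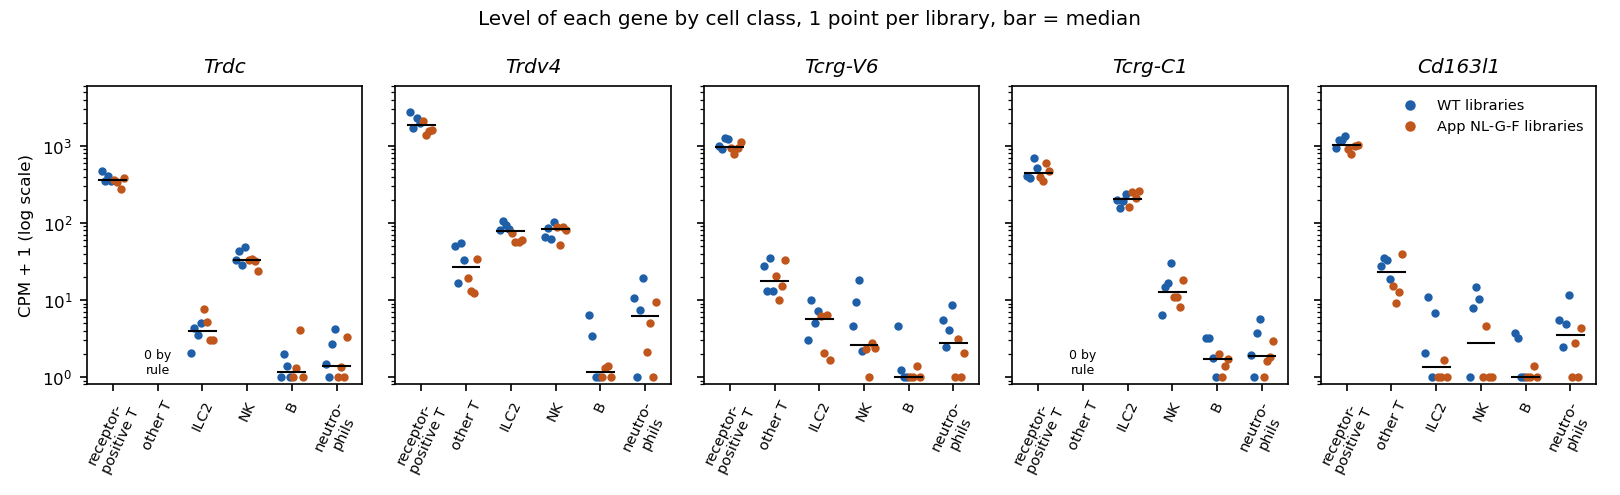
Level of each gene as CPM + 1 on a log axis in 6 cell classes, with 1 point per library (WT blue, App NL-G-F orange) and a bar at the median of the 8 libraries. Tcrg-V6 and Cd163l1 stand high in receptor-positive T cells alone, Tcrg-C1 is also high in ILC2 (median 205 CPM), Trdv4 in ILC2 and NK cells (76.7 and 82.9 CPM) and Trdc in NK cells (32.0 CPM).

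In ILC2, which respond to tissue alarm signals with type 2 cytokines and lack a T cell receptor, Tcrg-C1 and Trdv4 were present. Tcrg-C1 was at 200, 155, 189 and 238 CPM in the WT libraries and at 159, 251, 211 and 263 CPM in the App NL-G-F libraries. It had a UMI in 22.9% of the 4463 ILC2 (14.0% to 30.1% by library) at a median depth of 2666 UMIs. Trdv4 was at 79.6, 106, 94.2 and 82.4 CPM in ILC2 of the WT libraries and at 73.8, 56.3, 55.0 and 58.9 CPM in the App NL-G-F libraries, with a UMI in 17.4% of cells. Each WT library was thus above its App NL-G-F counterpart for Trdv4. The other members were rarer in ILC2. Trdc had a UMI in 0.650%, Tcrg-V6 in 0.941% and Cd163l1 in 0.179% of ILC2. In neutrophils, at a median depth of 6697.5 UMIs, the shares were 0.494%, 0.817% and 0.912% in the same order. In B cells, at a median depth of 2377 UMIs, they were 0.0838%, 0.0419% and 0.0559%, and no member had a UMI in more than 0.140% of cells. At these unequal depths, the ILC2 shares of Trdc and Tcrg-V6 were close to those of the deeper neutrophils and above those of B cells.

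NK cells, innate cytotoxic lymphocytes that also lack a T cell receptor, held the delta genes. Trdc was at 32.4, 41.9, 27.5 and 47.8 CPM in NK cells of the WT libraries and at 31.6, 33.4, 30.9 and 22.5 CPM in the App NL-G-F libraries. Trdv4 was at 64.2, 84.6, 60.6 and 103 CPM and at 88.8, 50.5, 88.2 and 81.1 CPM in the same order. The ranges of the genotypes overlapped for both genes. A UMI of Trdc was found in 9.50% and of Trdv4 in 20.9% of the 3053 NK cells, at a median depth of 3207 UMIs. In the NK cluster led by Gzma, which encodes a granzyme, Trdc had a UMI in a median over libraries of 16.6% of cells, and in the cluster led by Gzmc in a median of 4.68%. Tcrg-V6 (0.622%), Cd163l1 (0.262%) and Tcrg-C1 (2.55%) were rarer in NK cells.

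The shares were also taken at equal depth. With every cell thinned to 1500 UMIs and shallower cells left out (359 ILC2, 154 NK cells and 702 neutrophils among them), Tcrg-C1 had a UMI in 16.0% and Trdv4 in 10.4% of ILC2. Trdv4 then had a UMI in 10.6% and Trdc in 4.59% of NK cells, and Trdv4 in 0.614% of neutrophils and 0.0621% of B cells. For Trdc the thinned share was 0.439% in ILC2 and 0.241% in neutrophils, and for Tcrg-V6 0.585% and 0.329%. At equal depth ILC2 were thus above neutrophils for both genes. In receptor-positive T cells, the thinned shares were 60.0% for Trdv4, 55.5% for Tcrg-V6 and 56.0% for Cd163l1.

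The ratio of the genes to each other also differed between classes. Per UMI of Tcrg-V6 there were 1.92 UMIs of Trdv4 in receptor-positive T cells, 1.27 in other T cells and 2.46 in neutrophils. In ILC2 there were 17.9 (95% interval 13.7 to 24.0) and in NK cells 19.4 (14.3 to 27.1). Tcrg-C1 gave 0.465 UMIs per UMI of Tcrg-V6 in receptor-positive T cells, 0.577 in neutrophils and 47.5 (36.4 to 63.2) in ILC2. Trdc gave 0.364 in receptor-positive T cells, 0.407 in neutrophils and 8.16 (5.94 to 11.5) in NK cells. With libraries pooled, neutrophils thus held the genes in a ratio near that of receptor-positive T cells, while ILC2 and NK cells did not. In libraries with 3 or more Tcrg-V6 UMIs, the Trdv4 ratio ran from 3.47 to 57.7 in NK cells (4 libraries). It ran from 1.92 to 8 in neutrophils (5 libraries) and from 10.25 to 39 in ILC2 (6 libraries). The Trdc ratio ran from 1.58 to 16 in NK cells and from 0.1 to 2.2 in neutrophils. By library, NK cells and neutrophils thus overlapped for both genes. Barcodes at the level of empty droplets held all 5 genes. For Trdc, Trdv4, Tcrg-V6 and Cd163l1 the level there was highest in the WT control library (51.3, 159, 60.6 and 32.6 CPM). All intervals here and below cover counting error only.

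The presence of Trdv4 was also compared between cells with and without a constant gene, with no test. In ILC2, Trdv4 had a UMI in 217 of 1021 cells with Tcrg-C1 (21.3%) and in 558 of 3442 cells without it (16.2%), and the share was higher with Tcrg-C1 in 5 of 8 libraries. In NK cells, Trdv4 had a UMI in 19.0% of cells with Trdc and 21.1% of cells without it, higher with Trdc in 3 of 8 libraries. Other receptor genes were also present. The gamma constant gene Tcrg-C4 was at 152 CPM in ILC2 (28.6% of cells) and 67.5 CPM in NK cells (16.8%), and the delta variable segment Trdv2-2 was at 49.2 CPM in NK cells (15.6%).

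Over 19 cell types with at least 50 cells, all 5 genes were highest in the gamma-delta T-like type. The next type was NK-like for Trdc (32.1 CPM), ILC2-like for Trdv4 (77.7 CPM) and ILC2-like for Tcrg-C1 (206 CPM). Tcrg-C1 was at 69.0 CPM in progenitor-like cells, with a UMI in 7.86% of 891 cells. For Tcrg-V6 and Cd163l1 the next was mast-like at 20.6 and 12.99 CPM, resting on 19 and 12 UMIs. Among genes outside the set, those with the most similar levels over the 19 types (Pearson r of log2(CPM + 1), across types that share libraries) were, for Tcrg-V6, Serinc2 (r = 0.930), Ablim3 (0.926), Cdh10 (0.924) and Il23r (0.922). For Cd163l1 they were Il23r (0.958), Serinc2 (0.954), Kcnk1 (0.952) and Ablim3 (0.950). Cd163l1 and Tcrg-V6 had r = 0.973 with each other. Trdv4 was closest to Rln3 (0.898), Gm31887 (0.894), Tcrg-V5 (0.887) and Tpbgl (0.880). Trdc was closest to Apol7b (0.931), Kcnk7 (0.928), Tcrg-V4 (0.915), Rln3 (0.907) and Il12rb1 (0.886). Tcrg-C1 was closest to Lrrn4 (0.881), Rhbdl3 (0.854), D630039A03Rik (0.851), Xlr4c (0.846) and Lif (0.846). Il23r encodes a cytokine receptor best known from IL-17-producing lymphocytes.

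Tcrg-V6 and Trdv4 were found in the same cells. Of 1103 receptor-positive T cells with Tcrg-V6, 1067 (96.7%, exact interval 95.5% to 97.7%) also held Trdv4, against 55 of 702 without Tcrg-V6. In the WT libraries, 98.6%, 97.4%, 96.5% and 98.4% of Tcrg-V6-positive cells held Trdv4, and in the App NL-G-F libraries 95.7%, 95.6%, 94.3% and 95.9%. Without Tcrg-V6 the library values ran from 2.94% to 11.1%. The share was higher with Tcrg-V6 in 8 of 8 libraries, by a mean of 89.0 points (SD 2.31, n = 8), which gave an exact two-sided sign-flip permutation p of 0.00781, the smallest that 8 libraries can give. In the other direction, 93.1% to 97.5% of Trdv4-positive cells held Tcrg-V6.

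Cd163l1, on another chromosome and no part of the receptor, followed the same cells. It had a UMI in 94.5%, 99.1%, 97.2% and 97.6% of Tcrg-V6-positive cells of the WT libraries and in 93.6%, 94.1%, 94.3% and 97.6% of those of the App NL-G-F libraries. Among cells without Tcrg-V6 the share was 3.92% to 13.2%, a mean difference of 86.6 points (SD 3.78, n = 8, exact sign-flip p = 0.00781, higher in 8 of 8). Conversely, 91.0% to 97.2% of Cd163l1-positive cells held Tcrg-V6. This p was the same for each of the 8 relations computed, also after Benjamini-Hochberg adjustment. Among all T cells, Trdc and Tcrg-C1 were less closely tied, and 44.7% to 72.5% of Trdc-positive T cells had a UMI of Tcrg-C1.

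Tcrg-V6 and Trdv4 also made up most of the variable-segment RNA. Of 10890 gamma variable UMIs in receptor-positive T cells, Tcrg-V6 took 63.5% (56.9% to 70.2% by library), Trgv2 19.7%, Tcrg-V5 9.25%, Tcrg-V1 3.97% and Tcrg-V4 2.96%. Of 14268 delta variable UMIs, Trdv4 took 93.3% (90.1% to 96.3%), Trdv5 1.80%, Trav13-4-dv7 1.51% and Trdv2-2 0.897%. A cell could hold more than 1 gamma segment. Of 1533 cells with a gamma variable UMI, 919 held more than 1 such segment, against 96 of 1368 cells for delta segments. Trgv2 was in 46.9% of receptor-positive T cells.

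The next comparison set receptor-positive against other T cells over all genes. UMIs were summed per library and class, and edgeR's quasi-likelihood test with a term for the library was run on 9707 genes. At an adjusted p of 0.05, 35.4% of them differed, 17.9% higher and 17.5% lower. Trdc and Tcrg-C1 chose the class and were not read from this fit. The other 3 members were higher. Trdv4 had a log2 fold change of 6.11 (SE 0.15, edgeR adjusted p = 3.05e-16), Tcrg-V6 of 5.57 (SE 0.13, adjusted p = 1.16e-16) and Cd163l1 of 5.45 (SE 0.15, adjusted p = 1.56e-15), each higher in 8 of 8 libraries. A joined Tcrg-V6 transcript can carry Tcrg-C1 and a joined Trdv4 transcript carries Trdc, so these segments are not independent of the rule, whereas Cd163l1 is a separate gene. With at least 2 UMIs required of the constant genes, the log2 fold change of Cd163l1 was 5.70.

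The IL-17-type program went with the receptor. All 20 listed genes were higher, with a median log2 fold change of 3.07, against -0.01 over all genes tested. Il17a, Il23r, Blk and Sox13 were among the markers that named the gamma-delta T-like cluster, which held 74.0% of receptor-positive T cells. The rise of these markers is thus not independent of how cells were grouped and is a description. Blk, a Src family kinase, had a log2 fold change of 5.30, Il23r of 4.51 and the interleukin-1 receptor gene Il1r1 of 4.49. Sox13, a transcription factor of gamma-delta thymocytes, had 5.35, and the cytokine gene Il17a 4.99. The median level of Il23r was 168 CPM (134 to 220 by library) in receptor-positive and 7.34 CPM (3.72 to 12.02) in other T cells. The 16 genes of the interferon-gamma-type, cytotoxic and circulating program were all lower (median -1.44), among them the chemokine gene Ccl5 (-2.35), the granule gene Nkg7 (-1.99) and the transcription factor gene Eomes (-2.29).

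Genes of the alpha-beta receptor were mostly lower, 5 of 6, with Cd8b1 at -3.70, Cd8a at -3.38 and the alpha constant gene Trac at -1.46 on the log2 scale. Of 8 CD3 and proximal signalling genes, 5 were higher, and Lck, the kinase that starts alpha-beta receptor signals, was lower (-1.85). Of 9 other SRCR genes, 3 were tested. 5830411N06Rik was higher (2.40), while Cd6 (-2.42) and Cd5 (-1.64), receptors of conventional T cells, were lower. Of 18 other gamma and delta segments tested, 12 were higher, with Tcrg-V5 at 4.90, Tcrg-V1 at 2.25 and Tcrg-C4 at 2.12, and 3 were lower. By size of change among genes at 20 CPM or more, the highest were Sox13, Blk, Abi3bp (5.14), Npl (5.00), Il17a, Tcrg-V5, Hacd4 (4.80), Rhobtb1 (4.66), Pram1 (4.60) and Pde5a (4.55). The lowest were Cd8b1, Gzmk (-3.59), Cd8a, the beta variable segments Trbv19 (-2.84), Trbv17, Trbv13-1 and Trbv3, and BE692007, Ifi27l2a (-2.61) and Tnfrsf4 (-2.56).

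Some markers of other cell types also differed between the classes. Of 3 B cell markers, 2 were higher (Cd79a 1.24, Ms4a1 1.61), of 3 neutrophil markers 1 (Retnlg 1.28), and of 3 NK markers 1 was lower (Gzma -1.55). The summed B cell markers ranged from 89.6 to 755 CPM (median 149) in receptor-positive and from 160 to 211 CPM (median 189) in other T cells. The summed neutrophil markers ranged from 7.61 to 848 CPM (median 126) and from 9.99 to 425 CPM (median 152). Their part in the results was not tested.

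Receptor-positive T cells were then split by the variable segments. A UMI of Tcrg-V6 or Trdv4 was found in 1158 of them (64.2%, 50.7% to 72.6% by library), and 647 held neither. Only 186 of 8723 other T cells held either segment. Both classes had at least 20 cells in every library. Over 6821 genes, 21.8% differed, 11.1% higher and 10.7% lower in the class with a segment (edgeR, adjusted p of 0.05). Tcrg-V6 and Trdv4 chose the classes here and were not read from the fit.

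Cd163l1 separated the classes. With a segment it was at 1247, 1807, 1782 and 1805 CPM in the WT libraries and at 1380, 1490, 1870 and 1579 CPM in the App NL-G-F libraries. With neither it was at 39.1, 7.54, 45.8 and 119.6 CPM and at 56.8, 48.5, 28.2 and 59.5 CPM in the same order. The classes did not overlap in any library. The log2 fold change was 5.03 (SE 0.16, edgeR adjusted p = 3.83e-17, higher in 8 of 8 libraries). A UMI of Cd163l1 was found in 94.3% of cells with a segment and 5.26% of cells with neither. The related gene 5830411N06Rik, its neighbour on the chromosome, went the other way. It was at 0 to 41.5 CPM (median 9.11) with a segment and 11.4 to 143 CPM (median 95.9) with neither, a log2 fold change of -2.53 (adjusted p = 1.16e-06).

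Trdc and Tcrg-C1 are given here as levels, with no test, because every cell of both classes was chosen by a UMI of one of them. Trdc was at 369 to 547 CPM (median 421) with a segment and 141 to 326 CPM (median 234) with neither. Tcrg-C1 was at 434 to 636 CPM (median 491) with a segment and 215 to 1019 CPM (median 290) with neither. The 1019 CPM was WT chronic colitis, where 180 of 289 UMIs came from the 1 cell described below. The range without that cell was not taken. The ranges over libraries overlapped for Tcrg-C1 and not for Trdc.

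Other segments sorted between the classes. Tcrg-V5, which lies in the same gamma cluster as Tcrg-V6, was at 130 to 339 CPM with Tcrg-V6 or Trdv4 and 0 to 105 CPM with neither (log2 fold change 2.73), and Tcrg-C4 was higher by 0.44. The delta segments Trdv5 (-4.17), Trav15-1-dv6-1 (-4.70) and Trav13-4-dv7 (-3.55) were lower. In all, 2 of 12 other segments tested were higher and 7 lower. Trdv4 helped to choose the classes, and only 96 of 1368 cells with a delta segment held more than 1. Falls of the other delta segments thus follow largely from the split and are a description. Trdv5 was at 42.3 to 139 CPM in cells with neither segment and at most 18.4 CPM in cells with either, without overlap.

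**Figure D2:**
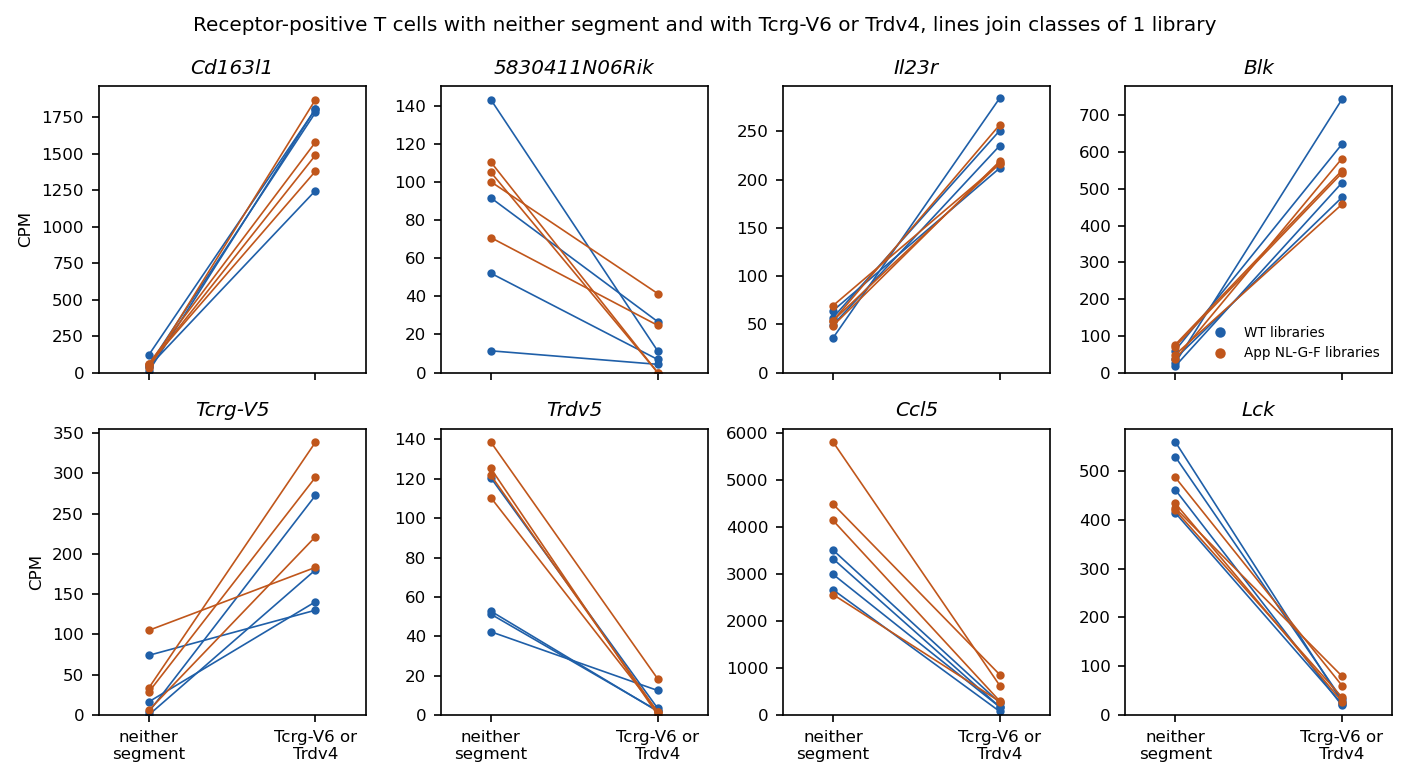
CPM of 8 genes in receptor-positive T cells with neither segment and with Tcrg-V6 or Trdv4, 1 line per library and linear axes from 0. Cd163l1, Il23r, Blk and Tcrg-V5 are higher on the right in every library, while Trdv5, Ccl5, Lck and 5830411N06Rik are lower in every library.

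Within the receptor-positive cells, the IL-17-type program stood with Tcrg-V6 and Trdv4. Of its 20 genes, 16 were higher and 2 lower, with a median log2 fold change of 1.35 against -0.01 over all genes. Here too, markers that named the gamma-delta T-like cluster are among the genes. The median of Blk was 547 against 43.1 CPM (log2 fold change 3.51), of Sox13 237 against 25.2 CPM (3.20) and of Il23r 227 against 53.7 CPM. Il17a had a log2 fold change of 5.08, but its level in cells with a segment varied from 82.9 to 6029 CPM between libraries. The 2 lower genes were 5830411N06Rik and the chemokine receptor gene Ccr6 (-0.68, edgeR adjusted p = 0.0376). The interferon-gamma-type, cytotoxic and circulating program was lower in 15 of 16 genes (median -2.78). Ccl5 had a median of 271 CPM with a segment and 3411 CPM with neither (-3.69), and Ly6c2, a marker of memory and circulating lymphocytes, 74.2 against 903 CPM (-3.88).

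Of the 8 CD3 and proximal signalling genes, 6 were higher in cells with Tcrg-V6 or Trdv4, including Cd247 (1.68), Cd3g (1.02) and Lat (0.81). Lck (-3.75) and Fcer1g (-2.89) were lower. Cd4 (-4.09), Cd8a (-3.62) and Cd8b1 (-3.19) were among 4 of 6 alpha-beta genes that were lower. Of 3 B cell markers 2 were higher and of 3 neutrophil markers 2 were higher in the class with a segment, and of 3 NK markers 2 were lower. The largest rises were Ptgs2 (6.04), Il17a, Auts2 (5.02), Hacd4, Rln3 (3.72), Tdrd9, Npl, Blk, Igkv8-24 (3.33) and Sox13. For Igkv8-24, a light chain segment of B cells, 938 of 1049 UMIs came from 1 cell of the WT acute colitis library. That cell held 13011 UMIs and more than 1 hashtag, and was not among the cells left out as Scrublet doublets. The largest falls were Igfbp7 (-5.61), the NK receptor genes Klrc1 (-4.33), Klra1 and Klre1, Trdv5, Cd4, Ly6c2, Lck, Gramd3 and Gm2682.

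The conditions were compared next, first by the receptor-positive share of T cells. It was 19.6%, 21.1%, 29.2% and 27.5% in the WT libraries, and 12.8%, 12.9%, 14.2% and 14.4% in the App NL-G-F libraries. Of all kept cells, whatever their type, receptor-positive T cells were 4.79%, 3.80%, 3.75% and 3.28% in the WT libraries and 3.56%, 1.94%, 3.69% and 4.10% in the App NL-G-F libraries. The genotypes did not overlap in the share of T cells but did in the share of all cells, where App NL-G-F food allergy was above 3 of the WT libraries. From counting error alone, WT chronic colitis was above WT control by 9.65 points (5.81 to 13.6), WT food allergy by 7.92 points (3.99 to 11.97), and App NL-G-F control was below WT control by 6.77 points (-9.21 to -4.34). The direction of the WT treatments turned with the denominator: of all kept cells, the share was 4.79% in WT control (exact 95% binomial interval 4.30 to 5.32), 3.75% in WT chronic colitis (3.27 to 4.28) and 3.28% in WT food allergy (2.82 to 3.79). The differences of the App NL-G-F treatments from their control were 0.130 points (-2.37 to 2.72) for acute colitis, 1.38 (-0.921 to 3.70) for chronic colitis and 1.56 (-0.630 to 3.74) for food allergy, and that of WT acute colitis was 1.54 points (-1.76 to 4.94), all as shares of T cells.

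The hashtag groups varied more than the libraries. Among 29 groups with at least 30 T cells, the share was 19.0% ± 15.1 (SD, n = 4) in WT control, 19.9% ± 1.89 (n = 4) in WT acute colitis, 29.2% ± 12.8 (n = 3) in WT chronic colitis and 26.9% ± 1.91 (n = 3) in WT food allergy. In App NL-G-F mice it was 13.04% ± 9.03 (n = 4), 14.8% ± 7.43 (n = 3), 19.2% ± 14.7 (n = 4) and 16.0% ± 13.4 (n = 4) in the same order. The groups overlapped in all 7 comparisons, and the exact two-sided permutation p ran from 0.343 to 1 (adjusted over the 7 comparisons, 0.9 to 1), where 4 against 4 groups can give no less than 0.0286. None of the differences in share was larger than the spread between hashtag groups. A hashtag group is not a known mouse, and for App NL-G-F chronic colitis the study's description of its mice gives fewer animals than there are hashtag groups. The SD and p there may not reflect the spread between animals, and the p may be too small.

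Within libraries the share moved with immediate-early genes (Fos, Jun, Egr1 and 7 others), which are induced within minutes by stimulation or tissue handling. Summed over T cells, these genes fell on either side of a gap from 1627 to 3269 CPM, which put 13 groups in a low and 16 in a high set. The receptor-positive share was 4.26% to 25.8% (median 7.13%) in low groups and 12.97% to 39.3% (median 22.2%) in high groups. It was higher in the high set of all 8 libraries, for example 31.8% against 7.11% in WT control and 20.8% against 5.81% in App NL-G-F control, but only 20.4% against 19.7% in WT acute colitis. The genotypes overlapped in both sets. In the low set, App NL-G-F chronic colitis (8.41%) was above WT control. In the high set, App NL-G-F chronic colitis (29.7%) was above WT food allergy (27.4%) and WT acute colitis (20.4%). Tcrg-V6 or Trdv4 was found in 72.0% of receptor-positive T cells where immediate-early RNA was high and 41.8% where it was low. Cd163l1 was at 1240 against 718 CPM in receptor-positive T cells of the sets, and at 1690 against 1615 CPM in those with Tcrg-V6 or Trdv4. The sets were defined from the data and no test was made between them.

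**Figure D3:**
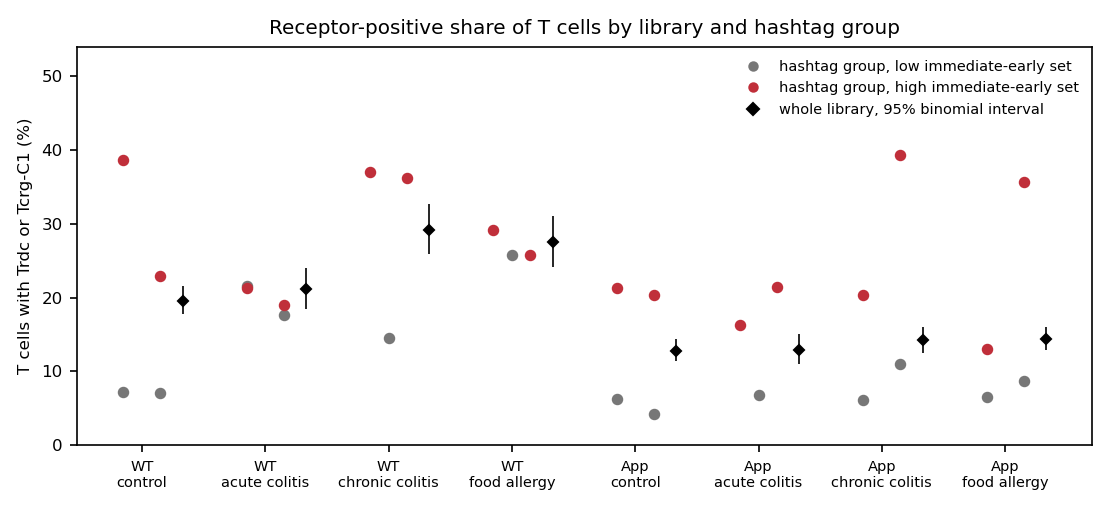
Percent of T cells with Trdc or Tcrg-C1 in each hashtag group with at least 30 T cells (grey, low immediate-early set; red, high set) and in each whole library (black diamond, 95% exact binomial interval). Groups of every condition overlap with those of its control, and red points reach 39.3% while grey points reach 25.8%.

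Last, the level of each gene in receptor-positive T cells was compared between conditions. With 1 library per condition, the fit was additive in genotype and treatment over the 8 libraries, with 3 residual degrees of freedom, and thus treats the genotypes as replicates of a treatment. Over 8434 genes, 0.462% differed in App NL-G-F against WT mice, 0.178% higher and 0.285% lower. None of the 5 members passed there. The log2 fold changes were -0.34 for Trdv4 (SE 0.09, edgeR adjusted p = 0.169), -0.27 for Cd163l1 (SE 0.11, adjusted p = 0.534), -0.18 for Trdc, -0.17 for Tcrg-V6 and -0.08 for Tcrg-C1.

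In acute colitis against control, 0.368% of genes differed, 0.142% higher and 0.225% lower. No member passed. Trdv4 was nearest, with a log2 fold change of -0.60 (SE 0.12, edgeR adjusted p = 0.0592), and it passed in 4 of 13 alternative settings, 2 of them without the WT control library (-0.65, adjusted p = 0.0164) and without the App NL-G-F control library (-0.56, adjusted p = 0.00919). In cells with Tcrg-V6 or Trdv4 alone, its log2 fold change was -0.38 (adjusted p = 0.267), and over all settings the adjusted p ran from 1.19e-04 to 0.437. Tcrg-V6 (-0.16), Trdc (-0.23), Tcrg-C1 (-0.09) and Cd163l1 (0.10) had adjusted p-values from 0.7104 to 0.903.

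In chronic colitis against control, 0.652% of genes differed, 0.0593% higher and 0.593% lower. Of the 5 members, Tcrg-C1 was higher, with a log2 fold change of 0.70 (SE 0.13, edgeR adjusted p = 0.0296). A single cell carried part of this difference. In the WT chronic colitis library, 1 cell of the gamma-delta T-like cluster held 180 of the 596 Tcrg-C1 UMIs of receptor-positive T cells, the next highest cell of any library held 36, and that cell had no UMI of the other 4 members. Without it the library was at 500 instead of 705 CPM, and the log2 fold change was 0.45 (adjusted p = 0.244). The call was lost in 8 of 13 alternative settings (adjusted p 6.61e-04 to 0.469), including those without the WT control (0.59), WT chronic colitis (0.60), WT food allergy (0.70), App NL-G-F chronic colitis (0.79) or App NL-G-F food allergy (0.69) library. Trdv4 (-0.37), Trdc (-0.29), Cd163l1 (0.23) and Tcrg-V6 (0.17) did not pass. In food allergy, 0.545% of genes differed, 0.0830% higher and 0.462% lower, and the members had log2 fold changes of -0.41 (Trdv4), 0.35 (Cd163l1), 0.30 (Tcrg-C1), 0.26 (Tcrg-V6) and -0.17 (Trdc), with adjusted p-values from 0.197 to 0.794. The treatment comparisons share the control libraries.

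**Figure D4:**
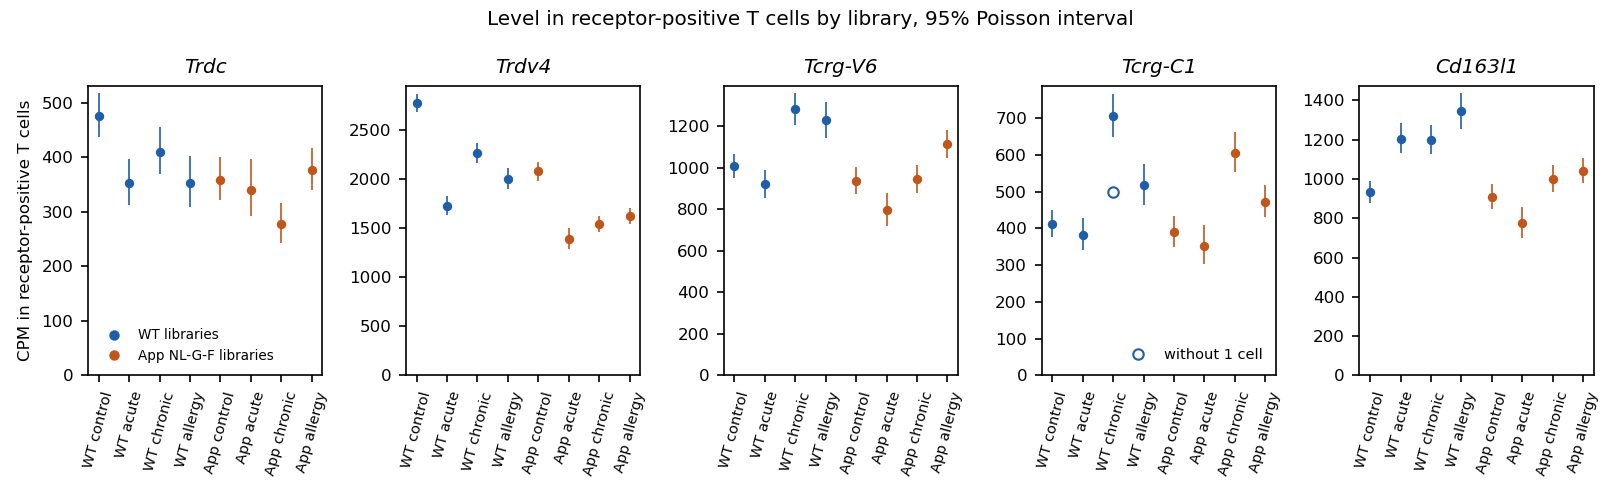
CPM of each member in receptor-positive T cells of each library with 95% Poisson intervals (WT blue, App NL-G-F orange). The open circle in the Tcrg-C1 panel is the WT chronic colitis library without 1 cell, at 500 instead of 705 CPM.

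Some listed genes passed between conditions in receptor-positive T cells. Of all genes tested, 0.462% passed in App NL-G-F against WT and 0.368% in acute colitis. The share was 0.652% in chronic colitis and 0.545% in food allergy. Of the IL-17-type program none of 20 passed in App NL-G-F against WT, where 20 genes had a median log2 fold change of -0.11. In chronic colitis Il17a (-4.22), Il17f (-2.90), Il1r1 (-1.02) and Zbtb16 (-1.29) were lower and Ccr6 (1.26) was higher. Among genes at 20 CPM or more, the largest falls in that fit were Ptgs2 (-6.18) and Ccl4 (-5.48). Ptgs2 (-4.20) and Ccl4 (-4.39) also fell in food allergy. Zbtb16, which encodes the transcription factor PLZF of innate-like T cells, was also lower in acute colitis (-1.40) and food allergy (-1.28), and Il17f was lower in food allergy (-3.18). Il17a was at 1105, 399, 270 and 382 CPM in the WT libraries and at 3895, 183, 43.7 and 272 CPM in the App NL-G-F libraries, highest in the control of both genotypes. In App NL-G-F against WT mice, 3 of 16 genes of the interferon-gamma-type program were higher (Gzmb 1.78, Ccl5 0.96, Nkg7 0.59), as was the delta segment Trdv5 (1.26, edgeR adjusted p = 0.0370). Cells with Tcrg-V6 or Trdv4 were 69.0%, 65.9%, 69.7% and 72.6% of receptor-positive T cells in the WT libraries. They were 60.6%, 50.7%, 56.0% and 64.1% in the App NL-G-F libraries, so the genotypes did not overlap over whole libraries. Within each immediate-early set these shares did overlap. App NL-G-F food allergy (75.1%) was above WT acute colitis (66.5%) in the high set. App NL-G-F chronic colitis (44.3%) was above WT control (36.8%) in the low set. Each App NL-G-F library was below the WT library of the same treatment in both sets. Between the segment classes, Ccl5 (-3.69), Nkg7 (-3.39) and Trdv5 (-4.17) were lower with a segment. The part of these shares in the genotype differences was not tested.

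Markers of other cell types passed in the same fits. All 3 B cell markers were higher in acute colitis, all 3 neutrophil markers in food allergy, and 2 of 3 neutrophil markers in App NL-G-F mice. The neutrophil markers summed to 848 CPM in receptor-positive T cells of the App NL-G-F food allergy library and to 7.61 CPM in WT control, where Retnlg was at 0. The B cell markers summed to 755 CPM in WT acute colitis and 89.6 CPM in App NL-G-F control. Their part in the differences between conditions was not tested.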

How the data were processed

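The deposited files were UMI counts per gene and barcode. Per the labels and methods, the authors made 5′ libraries, and reads were processed with Cell Ranger 6.1.2 on build mm10 (the file headers name another version of it), with cells sorted as CD45.2+. The deposited counts hold all barcodes, so cells were called here by a test against barcodes ranked 45000 to 90000 (at least 500 UMIs, 1000 simulations, adjusted p of 0.01), and those under 200 genes or over 5% mitochondrial UMIs were dropped. Cells were clustered with scanpy 1.11.5 and leidenalg 0.10.2 (2000 variable genes without gamma and delta receptor genes or Cd163l1, 30 components, 20 neighbours, resolution 0.5) and named from marker lists. Doublets were kept in the main results. Scrublet's own threshold marked 0 to 4 cells per library, so the alternative without doublets left out the highest scores, 0.8% per 1000 cells. UMIs were summed per library and class and tested with edgeR 4.0.16 in R 4.3.3 (TMM, filterByExpr, quasi-likelihood, Benjamini-Hochberg over all genes tested, threshold 0.05), with the library as a block where classes of 1 library were compared. DESeq2 1.42.0, no filter, each library left out and further settings were alternatives. Shares were compared by exact permutation over hashtag groups with scipy 1.17.1. On simulated data the fits recovered 100% (receptor-positive against other T cells) and 91% (Tcrg-V6 or Trdv4 against neither) of genes changed by 1 on the log2 scale, and 91% and 49% in the genotype and acute colitis comparisons. At a change of 2 the acute colitis fit recovered 99.5%.

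The 5 genes, the lists and the tests were chosen with earlier results of these data known. Named genes were the members, for each list the 3 genes with the smallest p in each direction, and the 10 largest changes each way at a mean of 20 CPM or more, plus list genes whose levels are given by library, which were picked after their values were seen. Some items of these lists are not reported here. The raw tables of 8 libraries gave kept totals of 25619139 to 54618574 UMIs. UMIs remove amplification copies, and intervals cover counting error only. Hashtag groups are not known to be single mice, so p-values over them measure the spread between these groups.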

Additional observations from a re-analysis of the deposited data

How the results depend on the processing

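Trdv4, Tcrg-V6 and Cd163l1 against other T cells, and Cd163l1 between the segment classes, kept direction and side of the threshold in all 15 alternatives each. Classes of 1 library are paired by the library. In the fits with no replicate block, 1452 genes were higher and 1289 lower in receptor-positive T cells and 551 and 502 with a segment, and no call of Trdv4, Tcrg-V6 or Cd163l1 changed. The settings by immediate-early set, without the 1 cell and with Tcrg-V6- or Trdv4-positive cells alone were chosen after seeing the data. The cause of each difference below was not tested unless the setting itself removes genes or samples.

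Differences in receptor-positive share (points, treatment minus control) moved as follows. In the low immediate-early set they were 12.6 for WT acute colitis, 18.7 for WT food allergy and -1.30 for App NL-G-F control minus WT control. In the high set they were -11.4, -4.31 (reversed) and -10.9 in that order, 4.86 for WT chronic colitis and 8.88 for App NL-G-F chronic colitis. With cells called by UMI total alone they were 4.88 for WT chronic colitis and 7.37, -2.42 and -1.62 for App NL-G-F acute colitis, chronic colitis and food allergy. The mean over hashtag groups was 6.17 for App NL-G-F chronic colitis. The difference of WT acute colitis turned to -1.15 at 1500 UMIs per cell and to -0.63 with cells called by UMI total alone, and that of App NL-G-F acute colitis to -0.34 with 2 UMIs required and to -2.07 in the high set. The interval left out 0 for App NL-G-F food allergy with 2 UMIs required (0.47 to 4.14) and, in the low set, for App NL-G-F chronic colitis (2.60, 0.39 to 4.81). For WT acute colitis the hashtag mean reversed to -0.60 with 2 UMIs required and to -4.02 at 1500 UMIs per cell.

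Counts of genes, higher and lower, depended on the setting. With no filter they were 129 and 105 (App NL-G-F against WT), 110 and 130 (acute colitis), 81 and 179 (chronic colitis) and 66 and 166 (food allergy). With DESeq2 they were 6 and 15, 7 and 6, 0 and 14, and 3 and 11 in that order, and 430 were higher with a segment. At an unadjusted p of 0.05, edgeR gave 859 genes (chronic colitis) and 885 (food allergy). In the low set, 528 and 482 genes differed between receptor-positive and other T cells and 126 and 199 between segment classes. In the high set the counts were 2 and 7 for genotype, 76 lower for acute colitis, 11 and 88 for chronic colitis and 11 and 69 for food allergy. In Tcrg-V6- or Trdv4-positive cells alone they were 19 and 51, 9 and 76, and 19 and 70 for the treatments. Without the 1 cell, 2 genes were higher in chronic colitis. Leaving out each library gave 1522 to 1722 higher and 1538 to 1651 lower (receptor-positive), 648 to 745 and 658 to 710 (segment classes), 7 to 34 and 9 to 64 (genotype), 6 to 161 and 1 to 89 (acute colitis), 2 to 132 and 11 to 105 (chronic colitis) and 1 to 127 and 0 to 93 (food allergy).

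Log2 fold changes of members that had not passed reversed near 0. For App NL-G-F against WT, Tcrg-V6 was 0.034 in the high set and 0.093 in cells with a segment, and Tcrg-C1 was 0.048 without the 1 cell and 0.022 in cells with a segment. For acute colitis, Tcrg-C1 was 0.012 in the high set and Tcrg-V6 0.065 in cells with a segment. Leaving out each library, ranges crossed 0 for Tcrg-C1 (-0.20 to 0.0019) and Cd163l1 (-0.15 to 0.36) in acute colitis, Tcrg-V6 (-0.022 to 0.35) and Cd163l1 (-0.018 to 0.48) in chronic colitis, and Trdc (-0.41 to 0.038) in food allergy. The reversals came without WT control (Cd163l1, both), WT acute colitis (Cd163l1), WT chronic colitis (Tcrg-V6), WT food allergy (Trdc) or App NL-G-F control (Tcrg-C1). Depth limits Trdc and Tcrg-C1 most, since many cells are called on 1 UMI.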

Other observations

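In ILC2, Tcrg-C4 had a UMI in 32.6% of cells with Tcrg-C1 and 27.5% of cells without it, higher in 7 of 8 libraries. Tcrg-V5 was at 24.0 CPM in ILC2, with a UMI in 6.00% of cells. In NK cells, Trdv2-2 had a UMI in 20.7% of cells with Trdc and 15.1% of cells without it, again higher in 7 of 8 libraries. These values are given without a test.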
